A study of Mus musculus with 40 samples.

Results

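The 42 genes described here mark the white blood cells that can be found in liver and kidney tissue. They comprised 17 genes of Kupffer cells and other macrophages, 5 of antigen presentation and dendritic cells, 7 of T and NK cells, 6 of B and plasma cells and 7 of neutrophils and myeloid cells in general. Each was taken by its symbol in the array's annotation, older synonyms included, and was read from the probe set with the highest mean signal over all 40 arrays. All 42 had a probe set (74 probe sets in all), out of 18161 genes named by a single symbol on the array.

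The arrays measured RNA from liver and kidney of 20 male B6C3F1/Crl mice (C57BL/6 male x C3H/He female), which arrived at 29 to 32 days of age and acclimatised for 5 days. A control group of 10 mice, numbered 1 to 10, drank water without phenobarbital (PB) for 28 days, and mice 11 to 20 drank water with 0.05% (w/v) PB. Liver and kidney of each mouse were hybridised separately, which gave 10 arrays in each of 4 groups: control liver, PB liver, control kidney and PB kidney. PB is an anticonvulsant that activates the constitutive androstane receptor (CAR) in hepatocytes and promotes liver tumours in mice without damaging DNA. The labels name no other agent, and the tissue was whole frozen organ, not sorted cells.

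Kupffer cells are the macrophages that sit inside the sinusoids of the liver, where they take up bacteria, old red cells and immune complexes, and they are recognised by surface proteins such as Clec4f, Vsig4 and Timd4. The kidney has its own resident macrophages and dendritic cells, which lie between the tubules and carry much of the MHC class II protein of that organ. In a bulk sample, fewer cells of a type and less RNA per cell cannot be told apart, so a lower signal of a marker gene describes the tissue and not a cell number.

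The signals were MAS5 values, linear probe set intensities that the study had scaled to a common trimmed mean. The median signal per array lay between 30 and 37.2. Values under 50 were treated as low, following the expression cut-off of the study, and a probe set was tested where its mean reached 50 in at least 1 of the groups compared. The labels held in every array: Alb, the hepatocyte albumin gene, was at 15657 or more in livers and at 1030 or less in kidneys. Cyp2b10, the P450 gene that CAR switches on, averaged 25.4 in control livers against 11482 after PB. Of the 42 members, 29 reached a mean of 50 in some group and 13 were below 50 in all 4. Those 13 were Marco, Fcgr1, Itgax, Cd3e, Cd3g, Cd4, Nkg7, Gzma, Ccl5, Cd79a, Cd79b, Ms4a1 and Itgam, with group means of 1.21 to 43.7.

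The promoters of 6 members, chosen after their values were seen, are shown as examples: 2 class II genes that were higher in kidney, the 2 calprotectin genes S100a8 and S100a9, of which S100a9 was called in liver after PB, Jchain, which was called in kidney after PB, and the Kupffer cell gene Vsig4. Capitals mark matches, on either strand, to 3 short motifs: GAGGAA, which the macrophage and B cell factor PU.1 can bind, CTGATTGG, the Y box of class II genes that NF-Y can bind, and TTGCNNAA, which C/EBP factors can bind. No matches overlapped. Each sequence runs 5′ to 3′ on the strand of the gene, from 250 bases before to 50 bases after the RefSeq start (build GRCm38.p6): H2-Aa chr17:34287774-34288073 (minus strand), H2-Eb1 chr17:34305617-34305916 (plus), S100a8 chr3:90668821-90669120 (plus), S100a9 chr3:90695672-90695971 (minus), Jchain chr5:88527848-88528147 (minus) and Vsig4 chrX:96293389-96293688 (minus).
H2-Aa: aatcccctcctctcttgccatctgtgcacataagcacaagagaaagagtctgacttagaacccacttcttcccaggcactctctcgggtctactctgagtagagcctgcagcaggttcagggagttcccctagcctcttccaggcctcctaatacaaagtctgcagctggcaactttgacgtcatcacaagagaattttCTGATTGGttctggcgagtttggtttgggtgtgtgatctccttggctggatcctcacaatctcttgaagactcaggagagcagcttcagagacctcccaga
H2-Eb1: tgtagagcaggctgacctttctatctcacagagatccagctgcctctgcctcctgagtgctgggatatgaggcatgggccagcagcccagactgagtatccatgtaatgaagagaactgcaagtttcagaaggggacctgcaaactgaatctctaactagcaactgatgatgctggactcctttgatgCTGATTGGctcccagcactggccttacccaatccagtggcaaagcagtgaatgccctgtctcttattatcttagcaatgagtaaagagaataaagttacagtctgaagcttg
S100a8: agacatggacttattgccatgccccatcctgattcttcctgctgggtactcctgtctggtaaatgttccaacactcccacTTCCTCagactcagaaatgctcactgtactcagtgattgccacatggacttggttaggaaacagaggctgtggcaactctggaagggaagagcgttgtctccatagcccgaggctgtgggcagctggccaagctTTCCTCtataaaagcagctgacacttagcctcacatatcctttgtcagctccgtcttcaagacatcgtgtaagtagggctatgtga
S100a9: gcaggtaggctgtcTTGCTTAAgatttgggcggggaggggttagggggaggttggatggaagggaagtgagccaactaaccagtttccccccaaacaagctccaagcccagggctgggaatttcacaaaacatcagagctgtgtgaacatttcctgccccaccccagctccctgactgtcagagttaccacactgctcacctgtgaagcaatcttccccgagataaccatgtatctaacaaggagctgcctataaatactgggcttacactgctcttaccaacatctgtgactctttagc
Jchain: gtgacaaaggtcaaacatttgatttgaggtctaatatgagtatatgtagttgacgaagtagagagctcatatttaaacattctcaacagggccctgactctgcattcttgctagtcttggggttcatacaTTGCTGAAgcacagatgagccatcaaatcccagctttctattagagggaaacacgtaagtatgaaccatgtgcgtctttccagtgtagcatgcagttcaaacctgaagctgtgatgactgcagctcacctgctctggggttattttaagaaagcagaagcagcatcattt
Vsig4: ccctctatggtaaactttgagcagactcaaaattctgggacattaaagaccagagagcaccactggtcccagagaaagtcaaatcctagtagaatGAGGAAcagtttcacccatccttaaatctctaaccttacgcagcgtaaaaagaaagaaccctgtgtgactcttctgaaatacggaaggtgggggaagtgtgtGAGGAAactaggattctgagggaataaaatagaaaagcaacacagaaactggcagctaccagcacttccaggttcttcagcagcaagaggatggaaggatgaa

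The Y box lay at -51 to -44 in H2-Aa and at -62 to -55 in H2-Eb1, counted from the start site. GAGGAA was present in 2 copies in Vsig4 and, on the opposite strand, in 2 copies in S100a8. Member promoters on chr18 were left out of the count, and the rest of RefSeq's table covered 30 of the 42 members (32 sequences). GAGGAA occurred in 17 of these 32 (53.1%) and in 28.3% of all 32851 promoters of the same length, CTGATTGG in 3 (9.38%, against 4.1%) and TTGCNNAA in 6 (18.8%, against 10.8%). The 32851 promoters kept chr18, so the member shares and the shares of all promoters are over unlike sets. A match is a string of letters and does not show that a factor binds there.

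In the liver, PB was followed by a higher signal of a single member, the immunoglobulin heavy chain gene Ighm, and by lower signals of 3: the scavenger receptor Cd163, the complement gene C1qa and the neutrophil protein gene S100a9. These are 1 of 29 tested members higher and 3 of 29 lower (3.45% and 10.3%). Over all genes tested in the same comparison (1 probe set per gene, 9912 genes), 6.42% were higher and 7.83% lower, so the share of members that changed was near that of genes at large. The median log2 fold change of the 29 was -0.16, with 23 of them below 0, against a median of -0.018 over all genes. S100a8 and S100a9 passed the filter only through the control livers, which fixed their direction. Both are among the 23, and S100a9 is 1 of the 3 counted as lower. No member had PB and control livers that did not overlap, as 1.77% of all genes did. The test throughout was limma on log2 signal with Benjamini-Hochberg adjustment over all probe sets tested, two-sided, with 10 mice per group.

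**Figure D1:**
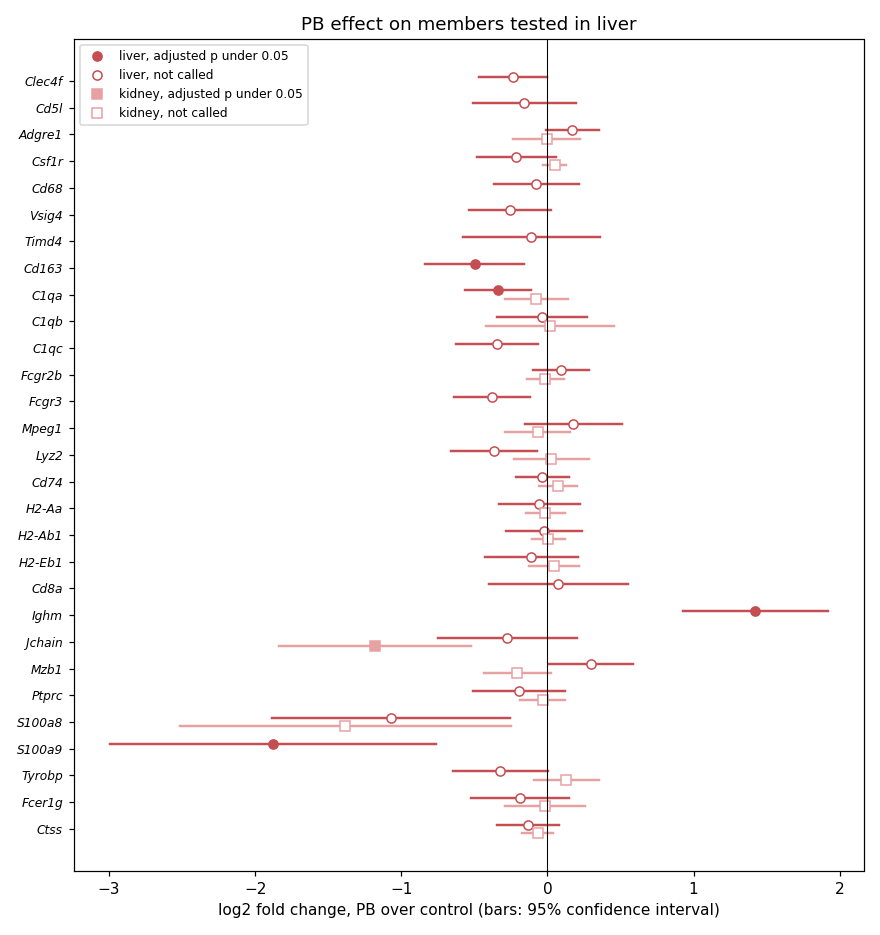
log2 fold change of PB over control for the 29 members tested in liver (circles) and the 18 tested in kidney (squares), with bars for the 95% confidence interval and filled symbols for an adjusted p under 0.05. Ighm stands to the right at 1.42 in liver, S100a9 to the left at -1.88, and the intervals of Cd74, H2-Aa and H2-Ab1 straddle 0 in both organs.

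Among the 17 Kupffer cell and macrophage genes, 15 were tested in the liver, 2 fell, none rose, and the median log2 fold change was -0.21. Over all genes tested, 7.83% fell and 6.42% rose. Cd163, the receptor by which macrophages clear haemoglobin bound to haptoglobin, ran from 101 to 332 in control livers (median 173) and from 96.2 to 194 in PB livers (median 127). The groups overlapped, with 9 of 10 PB livers below the control median. The log2 fold change was -0.50 (standard error 0.16, limma adjusted p = 0.0486).

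C1qa, the A chain of the complement component C1q that macrophages make, lay between 279 and 393 in control livers (median 321) and between 186 and 344 in PB livers (median 282). Of the PB livers, 5 of 10 were below every control liver. Its log2 fold change was -0.34 (standard error 0.11, limma adjusted p = 0.0425). The partner chains did not pass: C1qb had 426 ± 90.9 and 421 ± 121 (SD, n = 10) and C1qc 300 ± 42.3 and 243 ± 70.8, with 6 of 10 PB livers below all controls for C1qc. The C1qb probe set used carries the mark _x_at. The plain C1qb probe set had 296 ± 56.7 and 229 ± 68.2 in liver and was not called either (log2 fold change -0.40, standard error 0.14, limma adjusted p = 0.0682). The C1qa call was lost under 6 of 18 other settings, Student's t for log2 values among them (adjusted p = 0.0658), and without control liver 1, 4, 7, 8, 9 or 10 or PB liver 14, 15, 17, 18 or 20 (0.0530 to 0.0797). The Cd163 call was lost under 8 of 18 other settings, Student's t for log2 values (adjusted p = 0.0797) and a fit of all 40 arrays (0.405) among them, and without control liver 1, 2, 3, 4, 6, 7, 8 or 10 or PB liver 13, 14, 15, 17, 18, 19 or 20 (0.0530 to 0.0858).

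Clec4f, Vsig4, Cd5l and Timd4 were not called. Like the called Cd163, they had means below 50 in both kidney groups. Clec4f, a lectin of Kupffer cells, had 457 ± 90.5 in control livers and 388 ± 71.6 in PB livers (log2 fold change -0.24, 95% confidence interval -0.47 to -0.0033, limma adjusted p = 0.18). Vsig4, a complement receptor, had 414 ± 86.9 and 352 ± 101, with a log2 fold change of -0.25 (adjusted p = 0.231). Cd5l, a macrophage survival protein, had 597 ± 149 and 552 ± 212, and Timd4, a receptor for phosphatidylserine on dying cells, 52.5 ± 10.4 and 51.4 ± 15.2.

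Genes shared by most macrophages did not pass either. Adgre1, which encodes F4/80, had 193 ± 19.7 and 219 ± 34.1, with 5 of 10 PB livers above every control liver and a log2 fold change of 0.17 (limma adjusted p = 0.212). Csf1r, the receptor for macrophage colony-stimulating factor, had 1154 ± 215 and 1011 ± 266, and Cd68, a lysosomal glycoprotein, 76.0 ± 15.7 and 71.8 ± 15.0. The activating Fc receptor gene Fcgr3 had 97.8 ± 12.9 and 76.8 ± 18.9, with 7 of 10 PB livers below every control, and missed the threshold (log2 fold change -0.38, adjusted p = 0.0510). Lyz2, a lysozyme, had 391 ± 83.8 and 308 ± 84.3 (log2 fold change -0.36, adjusted p = 0.0959).

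PB liver 12 bore on these values. It was the highest of the PB livers in 11 of the 15 macrophage genes measured at 50 or more, with a median log2 deviation of 0.63 from the other PB livers, and control liver 10 was the highest control in 10 of 15, with 0.44. Without PB liver 12, 8 members were called, with C1qc, Fcgr3, Lyz2 and S100a8 joining Ighm, Cd163, C1qa and S100a9. Of these 8 all but Ighm were lower in PB livers, but S100a8 and S100a9 passed the filter only through the control livers, which fixed their direction. Without PB livers 11 and 12, 9 were called, Vsig4 being the further one. Without control liver 10, 2 were called, Ighm and S100a9.

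**Figure D2:**
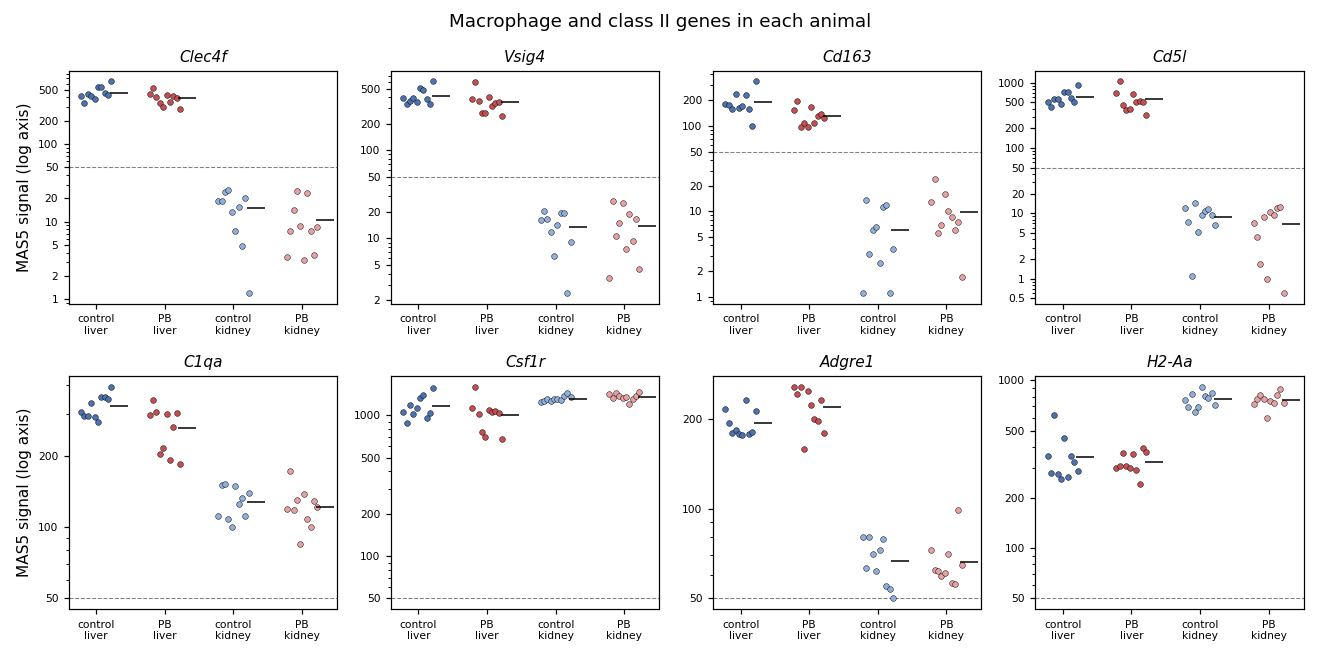
MAS5 signal on log axes of 8 macrophage and class II genes in each array (points) by group, with the group mean as a short bar and a dashed line at 50. The Clec4f, Vsig4, Cd163 and Cd5l signals of all kidneys lie below 50 and those of all livers above it, and H2-Aa is higher in every kidney than in any liver of the same treatment.

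In the kidney, none of the 7 macrophage genes tested was called after PB. Csf1r had 1310 ± 56.6 in control and 1357 ± 74.9 in PB kidneys, C1qa 128 ± 19.4 and 122 ± 23.6, Adgre1 66.5 ± 11.6 and 66.3 ± 12.7, and Lyz2 173 ± 22.2 and 181 ± 57.4. The log2 fold changes of the 7 ran from -0.075 to 0.050, with a median of -0.0056. That range uses the _x_at probe set of C1qb. The plain C1qb probe set had 96.3 ± 15.1 and 77.4 ± 23.1 in kidney and was not called (log2 fold change -0.35, standard error 0.13, limma adjusted p = 0.146).

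Between the organs, macrophage genes were found on both sides. In control mice 13 of the 15 tested were higher in liver and 2, Csf1r and Fcgr2b, were higher in kidney. PB mice gave 13 and 2 for the same list, with Csf1r and Fcgr2b again on the kidney side. Of all genes, 36.5% were higher in liver and 44.2% in kidney in control mice, and 36.2% and 46.6% in PB mice. In each treatment 8 of the 13 passed the filter only through the liver, which fixed their direction, and the other 7 tested genes gave 5 higher in liver and 2 in kidney. Cd5l had 8.79 ± 3.82 in control kidneys, Cd163 6.02 ± 4.56, Vsig4 13.6 ± 6.05 and Clec4f 14.9 ± 8.15. With kidneys taken at 50, the cut-off, control livers were at least 11.9-fold higher in Cd5l, 9.14-fold in Clec4f, 8.28-fold in Vsig4 and 3.79-fold in Cd163. Their fitted log2 differences were 6.28, 5.29, 5.11 and 5.38 (standard errors 0.32, 0.40, 0.29 and 0.41, limma adjusted p = 1.9e-14, 2.8e-11, 1.4e-13 and 3.7e-11), and they depend on the low kidney signals.

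Adgre1, C1qa, C1qb and Mpeg1 were at 50 or more on average in both organs. Adgre1 was higher in liver by 1.55 on the log2 scale (standard error 0.10), C1qa by 1.35 (0.09), C1qb by 1.97 (0.18) and Mpeg1, which encodes a pore-forming protein of phagosomes, by 2.98 (0.13). Csf1r was higher in kidney in control mice, with a log2 difference, liver over kidney, of -0.20 (standard error 0.08, limma adjusted p = 0.025) and in PB mice of -0.46 (0.11, adjusted p = 0.00058). The call in control mice was lost without control liver 2 or 8 (adjusted p = 0.0503 and 0.0509) and under 3 of 18 other settings, a fit of all 40 arrays among them (adjusted p = 0.0613). The call in PB mice was lost under 1 of 18, the thresholds of the study's methods. Fcgr2b, the inhibitory Fc receptor that liver sinusoidal endothelium also carries, had 449 ± 64.0 in control livers and 570 ± 39.2 in control kidneys.

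**Figure D3:**
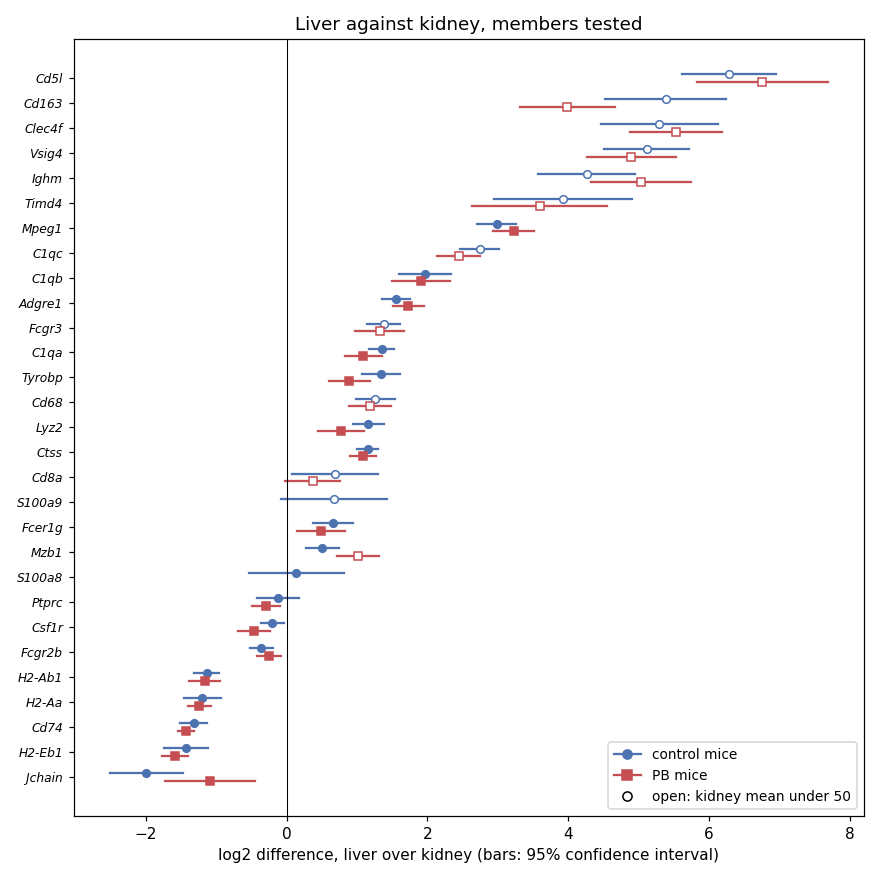
log2 difference, liver over kidney, of the 29 members tested in control mice (circles) and the 27 tested in PB mice (squares), with bars for the 95% confidence interval. Open symbols mark genes with a kidney mean under 50, Cd5l, Cd163, Clec4f, Vsig4 and Ighm among them, whose place on the axis depends on those low signals, and Jchain, Cd74 and the 3 class II chains lie left of 0.

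Over all 29 members tested in control mice, 19 were higher in liver and 7 in kidney (65.5% and 24.1%), where 36.5% of all 10912 genes were higher and 44.2% lower in liver. In PB mice 18 were higher in liver and 8 in kidney of 27 tested, beside 36.2% and 46.6% of all 11020 genes. Liver and kidney did not overlap in 22 of 29 members in control mice (48.1% of all genes) and in 19 of 27 in PB mice (50.6%). Of the 29 and 27, 11 each passed the filter only through the liver, and for these the liver had to be the higher organ.

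The MHC class II genes present peptides to helper T cells, and all 4 tested were higher in kidney than in liver. So were 44.2% of all genes in control mice and 46.6% in PB mice. H2-Aa, the alpha chain of I-A, had 348 ± 113 in control livers and 770 ± 83.1 in control kidneys. Cd74, the invariant chain that guides class II through the cell, had 306 ± 59.6 and 756 ± 83.1, H2-Ab1 123 ± 21.2 and 267 ± 17.5, and H2-Eb1 170 ± 74.2 and 434 ± 51.4. The log2 differences, liver over kidney, in control mice were -1.20, -1.32, -1.13 and -1.43 for H2-Aa, Cd74, H2-Ab1 and H2-Eb1 (standard errors of 0.13, 0.09, 0.09 and 0.15), and in PB mice they were -1.24, -1.43, -1.16 and -1.58.

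None of these 4 genes was called after PB in either organ. PB livers had 326 ± 48.1 for H2-Aa and 295 ± 22.02 for Cd74, and PB kidneys 762 ± 77.3 and 794 ± 76.4. The log2 fold changes of the 4 ran from -0.11 to -0.023 in liver and from -0.015 to 0.072 in kidney, and the 95% confidence intervals of Cd74 were -0.22 to 0.15 and -0.060 to 0.20. Control liver 3 was the highest control in H2-Aa (623), H2-Eb1 (370) and Cd74 (430). Without that liver the H2-Aa and Cd74 estimates turned to 0.045 and 0.023, and neither was called. Itgax, which encodes the dendritic cell integrin CD11c, was below 50 in all groups, with means of 22.1 to 40.4.

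Genes of T and NK cells were at the lower edge of what the arrays read. Of 7, only Cd8a, the coreceptor of cytotoxic T cells that some dendritic cells also carry, reached 50, with 59.1 ± 20.2 in control livers, 60.5 ± 18.9 in PB livers, 38.1 ± 16.4 in control kidneys and 46.4 ± 12.8 in PB kidneys. It was not called in liver after PB (log2 fold change 0.074, limma adjusted p = 0.869). The Cd8a probe set used carries the mark _x_at. The gene's other probe sets had means below 50 in every group, the next brightest 35.7 ± 8.45 in control livers. Cd3e, a chain of the T cell receptor complex, had means of 9.18 to 19.8, and Gzma, a granzyme of killer cells, 8.92 to 22.3. Neither was tested. The chemokine gene Ccl5 reached 151 in control liver 3, with a median of 29.9 over control livers and 24.6 over PB livers.

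Ighm, the mu heavy chain that B cells and plasma cells make for IgM, was the only member that rose after PB in the main test. Control livers had 335, 519, 660, 227, 512, 466, 223, 205, 446 and 197 in mice 1 to 10. PB livers had 652, 755, 1850, 1067, 714, 695, 833, 913, 759 and 1722 in mice 11 to 20. Of the PB livers 9 were above every control liver, and PB liver 11 alone fell within the control range, below control liver 3. The means were 379 ± 164 and 996 ± 434 (SD, n = 10), a log2 fold change of 1.42 (standard error 0.24, 95% confidence interval 0.93 to 1.92, limma adjusted p = 0.000265).

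The array carries 11 probe sets for Ighm, and they did not all behave alike. The next brightest had 186 ± 54.4 in control and 448 ± 186 in PB livers. The following ones had 115 ± 27.0 and 120 ± 33.7, and 53.4 ± 15.7 and 68.3 ± 17.9. The other 7 were below 50 in every group. The brightest set is named with _s_at, the array's mark for probes shared between transcripts.

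No other gene of the B lineage was called in liver, and 3 of the 5 others were too low to test. Cd79a and Cd79b, which form the signalling part of the B cell receptor, had 23.0 ± 8.81 and 29.9 ± 11.7 in control and 17.8 ± 7.35 and 34.5 ± 8.67 in PB livers, all below 50. Ms4a1, the gene of CD20, had 30.3 ± 15.3 and 23.6 ± 14.5. Mzb1, a chaperone for IgM in B and plasma cells, had 76.4 ± 15.1 and 94.98 ± 24.0 and was not called (log2 fold change 0.30, 95% confidence interval 0.011 to 0.59, limma adjusted p = 0.169). Jchain, which joins IgM and IgA into polymers, had 67.9 ± 20.1 and 58.9 ± 25.9 in liver (log2 fold change -0.27, adjusted p = 0.48).

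Jchain was the only member called in the kidney after PB. Control kidneys had 436, 172, 312, 326, 134, 492, 413, 280, 104 and 222 in mice 1 to 10, and PB kidneys 190, 161, 144, 289, 167, 76.6, 75.1, 120, 41.6 and 61.1 in mice 11 to 20. Every PB kidney lay below the control median of 296, and 4 were below all controls, while the ranges overlapped between 104 and 289. The log2 fold change was -1.18 (standard error 0.32, 95% confidence interval -1.84 to -0.52, limma adjusted p = 0.0421).

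That is 1 of 18 members tested lower and 0 higher in kidney, where 1.59% of all 10043 genes were lower and 2.16% higher. Besides Jchain, S100a8 was at an unadjusted p under 0.05, but it passed the filter only through the control kidneys, which fixed its direction. The Jchain call was lost under 8 of 18 other settings, Student's t for log2 values among them (adjusted p = 0.088), and without control kidney 1, 3, 4, 6, 7, 8 or 10 or PB kidney 16, 17, 18, 19 or 20 (0.0544 to 0.0786), with log2 fold changes of -1.21 to -1.02 in those fits. Fat cell markers moved with the groups in kidney: of the 5 markers 3 were measured, and their summed signal ran from 10.1 to 133 in control kidneys and from 78.1 to 1049 in PB kidneys, with 8 of 10 PB kidneys above every control. The remaining PB kidneys, 11 and 13, had Jchain at 190 and 144. Without the 3 PB kidneys highest in fat markers (12, 15 and 17) the adjusted p of Jchain was 0.0898, and without all 8 it was 0.715 (log2 fold change -0.64, with 2 PB kidneys left). The part of fat tissue in the result was not tested.

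Ighm and Jchain lay on opposite sides of the organ comparison. Ighm was at 21.2 ± 11.2 in control kidneys, and control livers were at least 7.58-fold and PB livers at least 19.9-fold above a kidney signal of 50. Jchain had 67.9 ± 20.1 in control livers and 289 ± 132 in control kidneys, a log2 difference, liver over kidney, of -1.99 (standard error 0.25, limma adjusted p = 1.9e-07). In PB mice the Jchain difference was -1.08 (standard error 0.31, adjusted p = 0.0029).

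**Figure D4:**
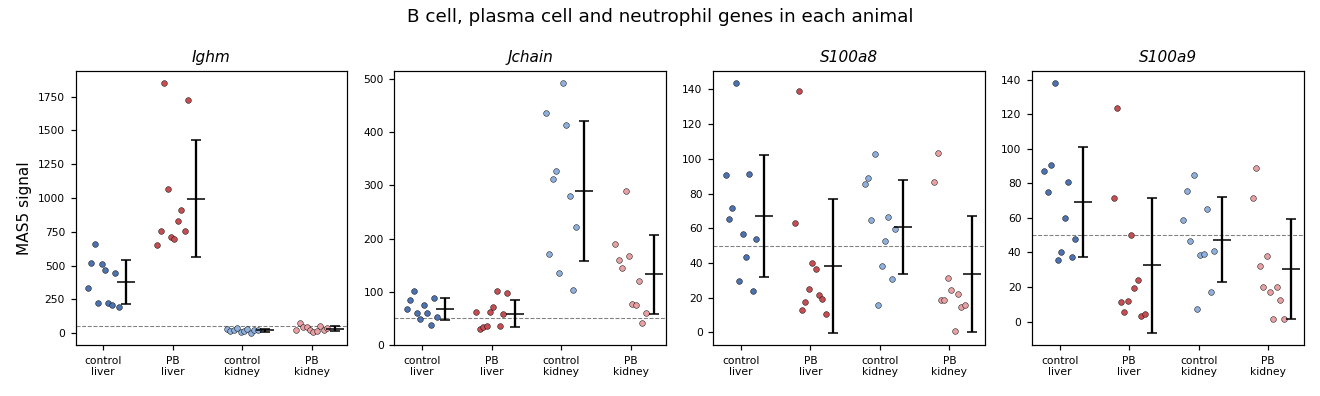
MAS5 signal of Ighm, Jchain, S100a8 and S100a9 in each array (points, in order of mouse number from left to right) by group, with the mean and SD (n = 10) beside the points and a dashed line at 50. Of the PB livers 9 exceed all control livers in Ighm, PB kidneys sit lower in Jchain, and 2 PB mice stay high in both S100a genes.

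S100a8 and S100a9 encode the subunits of calprotectin, which fills the cytoplasm of neutrophils. In control livers S100a9 had 87.4, 75.2, 90.7, 138, 35.7, 40.2, 59.9, 80.9, 37.1 and 47.7 in mice 1 to 10. In PB livers it had 71.6, 124, 11.4, 5.7, 11.8, 50.3, 19.4, 24.1, 3.3 and 4.2 in mice 11 to 20. Of 10 PB livers 7 were below every control liver, and PB livers 11 and 12 were within the upper control range. The log2 fold change was -1.88 (standard error 0.54, limma adjusted p = 0.0234). S100a9 passed the filter only through the control livers, and most PB livers were under 50. With every value under 50 set to 50, the log2 fold change was -0.28 and the call was lost (adjusted p = 0.354), as it was in 4 of 17 other settings in all.

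S100a8 had 67.1 ± 35.1 in control and 38.5 ± 38.6 in PB livers, and 5 of 10 PB livers were below every control. S100a8 passed the filter only through the controls in both organs, which fixed its direction. Its log2 fold change of -1.07 missed the threshold (standard error 0.39, limma adjusted p = 0.0778) and passed it without control liver 9 or PB liver 12 (adjusted p = 0.0450 and 0.0129). With every value under 50 set to 50 it was -0.26 (adjusted p = 0.418). In kidney S100a8 had 60.6 ± 27.2 and 33.7 ± 33.4 (log2 fold change -1.38, adjusted p = 0.177, and -0.19 with values under 50 set to 50), and S100a9, below 50 in both kidney groups and not tested, 47.5 ± 24.4 and 30.3 ± 29.0. PB kidneys 11 and 12 had 86.5 and 103 for S100a8, and the other 8 had 1.1 to 31.6.

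Of the remaining myeloid genes tested, 3 were called between the organs in control mice. Ctss, a lysosomal protease, had 719 ± 105 in control livers and 320 ± 21.9 in control kidneys, and Tyrobp, the adaptor of activating myeloid receptors, 200 ± 42.3 and 78.2 ± 13.7. Fcer1g, a signalling chain of Fc receptors, had 116 ± 25.3 and 73.0 ± 14.1. Ptprc, which encodes CD45 of all white blood cells, had 113 ± 43.8 in control livers and 118 ± 13.8 in control kidneys and was not called between them (log2 difference -0.13, limma adjusted p = 0.43). In PB mice Ptprc was higher in kidney, by a log2 difference, liver over kidney, of -0.29 (standard error 0.09, adjusted p = 0.0073), a call that was lost with quantile normalization (-0.083, adjusted p = 0.392) and with the thresholds of the study's methods. In control mice without control liver 3, which had 228, it was called with -0.25 (adjusted p = 0.0308). None of these 4 passed the test after PB in either organ, and Tyrobp came nearest, with a log2 fold change of -0.32 in liver (limma adjusted p = 0.187).

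Whether PB acted differently in liver and kidney was tested as the difference between its effects in the organs. No member of the 29 tested passed by limma, while 7.64% of all 11184 genes did, and 4 members were at an unadjusted p under 0.05: Cd163, Jchain, Mzb1 and Tyrobp. Mzb1 came nearest, with a difference of 0.50 (liver minus kidney effect, standard error 0.18, limma adjusted p = 0.0854). For Ighm the difference was 0.77 (95% confidence interval -0.24 to 1.77), measured against kidney signals below 50. With the next brightest Ighm probe set it was 1.08 and was called (adjusted p = 0.00907). On the main probe set a difference of the Ighm response between the organs was therefore not shown.

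Pairs of members known from the same cell type were followed from mouse to mouse. In 52 relations across mice within a group, 11 passed for Pearson's r on log2 signal after adjustment and 7 for Spearman's rho. In a relation between 2 genes of 1 organ the points share the array and its scaling, and in a relation between the organs they share the mouse. Clec4f and Vsig4 had r = 0.93 in control livers (rho = 0.71, permutation p = 0.0004 for r, permutation adjusted p = 0.0049 for r and 0.14 for rho), so rho did not pass there. In PB livers r was 0.95 (rho = 0.94, permutation adjusted p = 0.0005 for r and 0.0073 for rho). Without the 2 livers farthest from the median r was 0.87 in control and 0.95 in PB livers.

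S100a8 and S100a9 had r = 0.90 in control livers, 0.88 in PB livers, 0.97 in control kidneys and 0.79 in PB kidneys (rho = 0.89, 0.88, 0.99 and 0.88), and all 4 passed for both measures. Many of these signals were under 50, among them S100a8 in 8 of 10 PB kidneys. Without the 2 mice farthest from the median, r was 0.82, 0.73, 0.89 and 0.64. The pair also ran parallel between the organs of the same mouse in control mice, with r = 0.84 for S100a8 and 0.81 for S100a9 between liver and kidney (rho = 0.87 for both, permutation adjusted p = 0.014 for each r and 0.016 for each rho). In PB mice r was 0.41 for S100a8 (rho = 0.64) and 0.55 for S100a9 (rho = 0.64), and neither passed on the log2 scale. On linear signal r was 0.87 and 0.85, and both passed (permutation adjusted p = 0.025 for each), with PB mice 11 and 12 as the highest points.

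Other pairs were looser. C1qa and C1qc had r = 0.85 in PB livers (rho = 0.71, permutation adjusted p = 0.014 for r and 0.14 for rho) and r = 0.19 in control livers (rho = -0.055). Cd74 and H2-Eb1 had r = 0.77 in control livers (rho = 0.58, permutation adjusted p = 0.043 for r and 0.24 for rho), which dropped to 0.30 without the 2 livers farthest from the median, so the relation rested on them. Cd79a and Cd79b, both below 50, passed in control livers with r = 0.79 (rho = 0.59), which was 0.48 without 2 livers. Ighm and Jchain did not pass on log2 signal in any group: r was 0.71 in control livers and -0.090 in PB livers (rho = 0.66 and -0.21, permutation adjusted p = 0.077 and 0.91 for r). On linear signal the pair passed in control livers (r = 0.75, permutation adjusted p = 0.0487).

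Further genes of the same pathways stood on 7 lists beside the 42 members. Of 33 such genes tested in liver 3 rose (9.09%) and 5 fell (15.2%) after PB, beside 6.42% and 7.83% of all genes. Of 12 other macrophage genes tested in liver 1 fell after PB, the lysozyme gene Lyz1 (log2 fold change -0.54, standard error 0.17, limma adjusted p = 0.0418). The Lyz1 probe set carries the mark _x_at, as does the next brightest for that gene. Whether it also reads Lyz2, a lysozyme member that was not called, was not tested. Of 7 macrophage growth factors and chemokines 2 rose and 1 fell. Cxcl1, a chemokine that draws neutrophils, went from 2799 ± 2583 in control to 679 ± 366 in PB livers (-1.78 on the log2 scale, standard error 0.38, adjusted p = 0.00262). Ccl4 went from 44.7 ± 15.7 to 68.5 ± 9.5 and Cxcl10 from 75.6 ± 12.7 to 94.0 ± 9.6, both higher. Ccl4 passed the filter only through the PB livers, which fixed its direction, and it is 1 of the 3 counted as rising.

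Of 21 such genes tested in kidney 1 fell (4.76%) and none rose, where 1.59% of all genes fell and 2.16% rose. Il34, a second ligand of the Csf1r receptor, fell from 148 ± 29.7 to 84.7 ± 11.5 (log2 fold change -0.79, standard error 0.11, limma adjusted p = 0.00022), the sole call among the 4 growth factors and chemokines tested there. In liver it was below 50 in both groups. The difference of its PB effect between the organs was called (adjusted p = 0.00371), but its size rested on those low liver signals: it was 1.63 as measured (liver minus kidney, standard error 0.37) and 0.82 (0.12) with values under 50 set to 50. Csf1, the other ligand of that receptor, had 67.3 ± 13.8 and 65.3 ± 18.7 in kidney and 89.3 ± 29.5 and 124 ± 27.4 in liver and was not called.

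Of 6 other antigen presentation genes tested in liver, 2 fell after PB: H2-K1, a class I heavy chain, by a log2 fold change of -0.19 and Psmb9, an immunoproteasome subunit, by -0.35 (standard errors 0.05 and 0.09). Of 6 pan leukocyte genes, Lcp1, which bundles actin, rose by 0.21 and Cd53 fell by 0.35 on the log2 scale. Only 1 of 8 other B and plasma cell genes measured (Xbp1) and 1 of 9 other neutrophil genes measured (Lcn2, which hepatocytes also make) reached 50 in liver, and none of 13 other T and NK cell genes did. Neither Xbp1 nor Lcn2 was called.

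Markers of other liver cells moved in the same comparison as the macrophage genes. Of 9 stellate cell and fibroblast markers 5 fell after PB and none rose (median log2 fold change -0.31), where 7.83% of all genes fell and 6.42% rose. All 9 reached a mean of 50 in control livers and 8 did in PB livers, and a marker under 50 after PB could only fall. The summed signal of the stellate cell and fibroblast markers ran from 3711 to 4711 in control livers and from 2998 to 4140 in PB livers. Of 7 sinusoidal endothelial markers, Stab2, a scavenger receptor of that endothelium, fell by 0.38 on the log2 scale. The 7 hepatocyte markers gave no call, with a median of -0.075. The summed signal of the 17 macrophage members ran from 5240 to 7902 in control and from 4128 to 8344 in PB livers, with medians of 5709 and 5330. The part of these other cells in the macrophage values was not tested.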

How the data were processed

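RNA of liver and kidney from the 20 mice was hybridised to Affymetrix Mouse430_2 arrays. The deposited intensities are MAS5 signals, which the authors made with GCOS and scaled to a trimmed mean of 150; versions are not given in the sources used here. The 40 arrays had trimmed means of 148.91 to 149.272 and no identical pair, and the number of arrays, not a read depth, limits the precision. Of 45037 probe sets 34945 carried 1 gene symbol, 932 several and 9160 none; only the first were named.

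Signals below 1 were set to 1 and taken to log2, and probe sets with a mean of 50 in a compared group were tested with limma 3.58.1 (R 4.3.3; lmFit, eBayes with trend) at an adjusted p under 0.05. The fits were tested on simulated data. Correlations used 100000 permutations, two-sided, adjusted over the 52. Genes named are called members (in organ comparisons the 5 largest each way), 13 defining markers and up to 3 called genes of each further list. Further values named were chosen after they were seen. Members and lists were chosen with earlier results of these data known. Donor numbers pair the organs of a mouse (same animal): deviations from group means correlated by -0.07 to 0.21 within a mouse (median 0.08), and -0.01 between mice. Alternatives changed the filter, floor, scaling, test, probe set, donor block and each array left out.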

Additional observations from a re-analysis of the deposited data

Results flagged for a closer look

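Among 17 members tested for a sample standing apart in 51 groups of 10 arrays, 8 groups held such a sample, where chance gives about 1 in 20 of independent groups. The 51 are not independent, since the members were read on the same arrays. In each of the 8 groups, the gap to the next array was large against the range of the group (Dixon's test). Control liver 3 stood above the others in Ptprc (227.6, next 139.2), H2-Aa (622.9, next 451.3) and H2-Eb1 (370.5, next 178.0). PB liver 12 stood above the others in Csf1r (1596.5, next 1121.9), Vsig4 (597.7, next 401.7), Cd5l (1046.4, next 705.7) and Cd68 (105.5, next 79.4). PB kidney 19 stood above the others in Adgre1 (99.0, next 72.5). The cause was not tested. No member met the test of a difference in the PB effect between liver and kidney.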

How the results depend on the processing

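Beside the 4 members called in liver after PB, the expression thresholds of the study's methods, the methods' t-test on linear signal and Welch's t each called 1, no filter and Student's t each called 2, and 8 were called without control liver 3 and PB liver 12 and 9 without PB livers 11 and 12 (both chosen after seeing the data). Leaving out 1 liver gave 2 to 8. In kidney the 1 call became 0 with the study's thresholds, no filter, robust eBayes and each of the 3 t-tests. It also became 0 in limma fits without the 3 PB kidneys highest in fat markers and without the 8 above every control in them. Both of these fits were chosen after seeing the data. The second left 2 PB kidneys and called 0 of all 19442 probe sets by limma, with 1535 at an unadjusted p under 0.05. Leaving out 1 kidney gave 0 to 1. For the difference between organs, 0 became 2 with a floor of 50 and 1 with an offset of 16, the second highest probe set or probe sets without _s_at and _x_at, and 0 to 1 without 1 array: Mzb1 without control liver 10 or PB liver 13, Cd163 without PB kidney 20. The donor taken as a block (pairing the organs of a mouse) gave 0 members for that difference, 27 between organs in control mice and 26 in PB mice, against 26 in each without the block, and as a random block 0, 26 and 26. Ighm in liver passed under all 38 alternatives run. The 52 relations gave 15 calls on linear signal, 11 on log2.

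Uncalled values near 0 changed sign. Cd74 in liver became 0.033 and H2-Aa 0.053 without control liver 3 and PB liver 12, and H2-Aa 0.016 with its second probe set; without 1 liver they ran from -0.072 to 0.023 and from -0.096 to 0.045. In kidney, Adgre1 and H2-Aa became 0.016 and 0.0071 with median centring and 0.050 and 0.037 without the 3 kidneys highest in fat markers, and 0.029 and 0.0057 without the 8 (without 1 kidney, -0.072 to 0.027 and -0.042 to 0.024). For the difference between organs, Clec4f became -0.22 and -0.24 with floors of 20 and 50 and -0.0058 with the offset, S100a8 -0.072 with the floor of 50 (without 1 array, -0.15 to 0.57), and H2-Aa 0.068 without control liver 3 and PB liver 12 and 0.048 with the second probe set (without 1 array, -0.081 to 0.060). Between organs in control mice, Ptprc became 0.058 with quantile normalization, and S100a8 ran from -0.055 to 0.28 without 1 array. The causes were not tested. Median centring moved the share of liver calls that were higher (1 probe set per gene) from 636 of 1412 to 482 of 1388. Of 2376 values of single genes under alternatives, 2254 kept their direction and side of the threshold, 73 lost it, 11 gained it and 38 changed sign.

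Of the 42 members 13 had means under 50 in every group and were not tested, and folds against such signals depend on the floor.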
